A study of Mus musculus with 16 samples.

Results

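The comparison was of ovalbumin (OVA) with saline in the airway epithelium of wild type mice, over 8 of the 16 arrays of the series, 4 with OVA and 4 with saline. Ovalbumin is a chicken egg protein to which mice can be made allergic, and challenge of the airway then gives an asthma-like inflammation. The mice were of the FvB strain and 6 to 8 weeks old at sensitization. The OVA mice received 20 ug of OVA into the peritoneum on days 1, 4 and 7 and then 10 ug intranasally in each of 9 weeks, the saline mice received saline by both routes on the same schedule, and epithelium was taken 24 h after the last challenge. The other 8 arrays, from mice lacking Itgb6 (ko) under the same treatments, entered the model for its estimate of spread and are given only beside wild type values. The labels do not say whether each array is a separate mouse, so p-values measure the spread between these samples.

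The airway lining is built of ciliated cells, which move mucus, secretory club cells, which carry much of the airway's enzymes for foreign chemicals, and basal cells, from which both renew. In allergic airways, IL-4 and IL-13 act on secretory cells, which become mucous cells and take on a large load of secreted protein. That load passes through the endoplasmic reticulum, where chaperones fold it and sensors of unfolded protein adjust the supply of chaperones. The RNA is that of a whole tissue sample, so fewer cells of a type and less RNA per cell cannot be told apart. Epithelial keratins were present on every array, with Krt8 at 7.60 to 8.35 and Krt18 at 7.48 to 8.04. These and all levels below are log2 of the signal over the 75th percentile of the array, and changes are OVA minus saline on the log2 scale.

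Arrays OVA 1 and OVA 2 stood apart in one respect, with 74.4% and 73.1% of probes well above background against 47.4% to 58.8% on the other 6 wild type arrays. In gene levels OVA 1 and OVA 4 lay furthest from the mean of the other arrays of their group, with an SD of 0.61 and 0.58. The other 6 had 0.40 to 0.51, OVA 2 among them with 0.43. OVA 4 stays in where OVA 1 and OVA 2 are left out together. On OVA 1 the markers of some other tissues were also high. The mean of 23 striated muscle genes there lay 3.77 above the saline mean, against -1.60 to -0.39 on the other OVA arrays and -1.35 to 1.62 on the saline arrays, and the mean of 14 B and plasma cell genes lay 1.46 above it, against -0.04 to 0.27. Other lists varied on other arrays. Relative to the saline mean, red blood cell genes ran from -3.12 to 3.18 on the saline arrays and from -1.83 to 3.38 on the OVA arrays. Adipocyte genes lay at -0.40 on OVA 1 and 1.38 on OVA 2. The part of these arrays and tissues in the results was not tested. Calls that end without both OVA 1 and OVA 2 are named beside their genes. Array position on the slide also differed: the saline arrays lay at positions 2, 2, 2 and 1 and the OVA arrays at 4, 2, 1 and 4, in replicate order, so position and treatment are only partly separable, and with position as a block (the position block below) 88 of the calls were kept. The limma test covered 18562 features, genes or transcripts with no symbol, and with Benjamini-Hochberg adjusted p under 0.05 called 289 (1.56%) higher and 196 (1.06%) lower with OVA, 485 in all (2.61%). Groups did not overlap for 474 of the 485, against 9.28% of all tested, and the same number had one sign within each of the 3 slides that held both groups. The 485 were picked by p in these same arrays, so this separation largely follows from the choice and is no added support. The same holds for single genes described below as having groups apart. Without OVA 1 and OVA 2 together, 98 were higher and 63 lower, and 132 of the 485 kept their call. The direction of all 485 was the same under each of the 32 alternatives that tested them, and 190 were called whichever single array was left out. The alternatives reuse the arrays by which the 485 were picked, so a kept direction is no independent support.

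**Figure D1:**
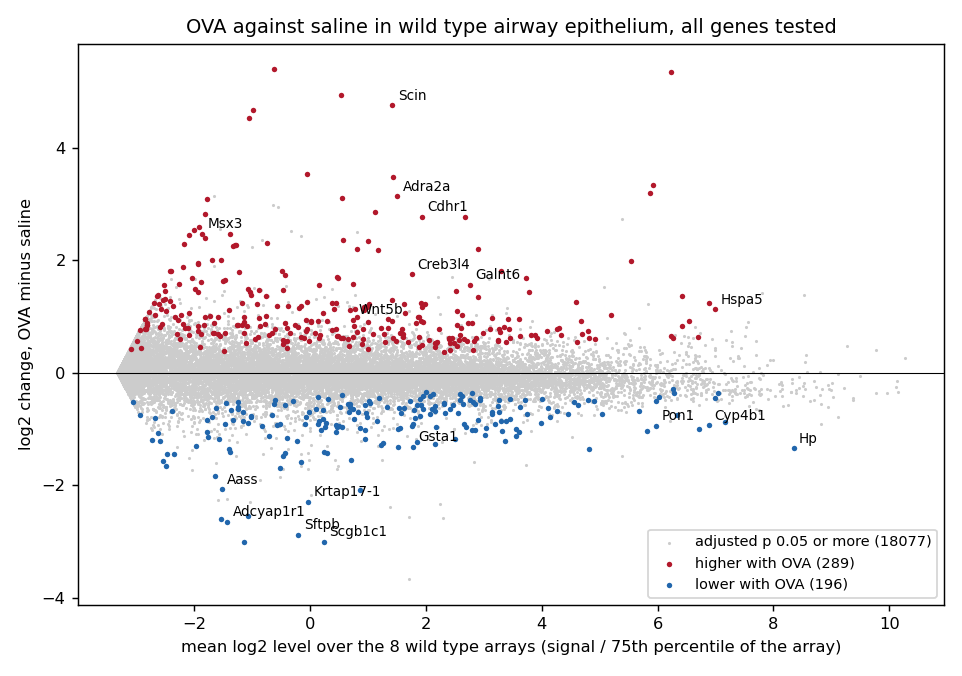
Change with OVA (vertical, log2) against mean level over the 8 wild type arrays (horizontal, log2) for each of the 18562 genes and transcripts tested. Red points are the 289 called higher, blue points the 196 called lower and grey points the rest, and the named genes are described in the text.

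Most of the called changes were moderate. Of the genes called higher, 14 lay under 0.5 on the log2 scale, 159 between 0.5 and 1 (2-fold), 82 between 1 and 2 and 34 at 2 or more. Of those called lower, 28 lay under 0.5, 112 between 0.5 and 1, 47 between 1 and 2 and 9 at 2 or more. A symbol was known for 392 of the 485, and 134 of these stood on at least 1 of 66 lists of cell type and pathway genes, 74 higher and 60 lower. The other 258 were on no list. The mucous cell and mast cell lists had 12 of 20 and 9 of 21 measured genes higher, led by Foxa3 (1.73, SE 0.14, a transcription factor of mucous cells), Scin (4.75, SE 0.45), Mcpt2 (2.53, SE 0.20, a mast cell protease) and Tph1 (1.80, SE 0.16, the first enzyme of serotonin synthesis). Mcpt2 and Tph1 lay at -3.13 and -3.24 on saline 4 and at the floor of -3.32 on the other saline arrays. Their changes therefore depend on the floor. The mucous and mast cell lists are not described further.

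**Figure D2:**
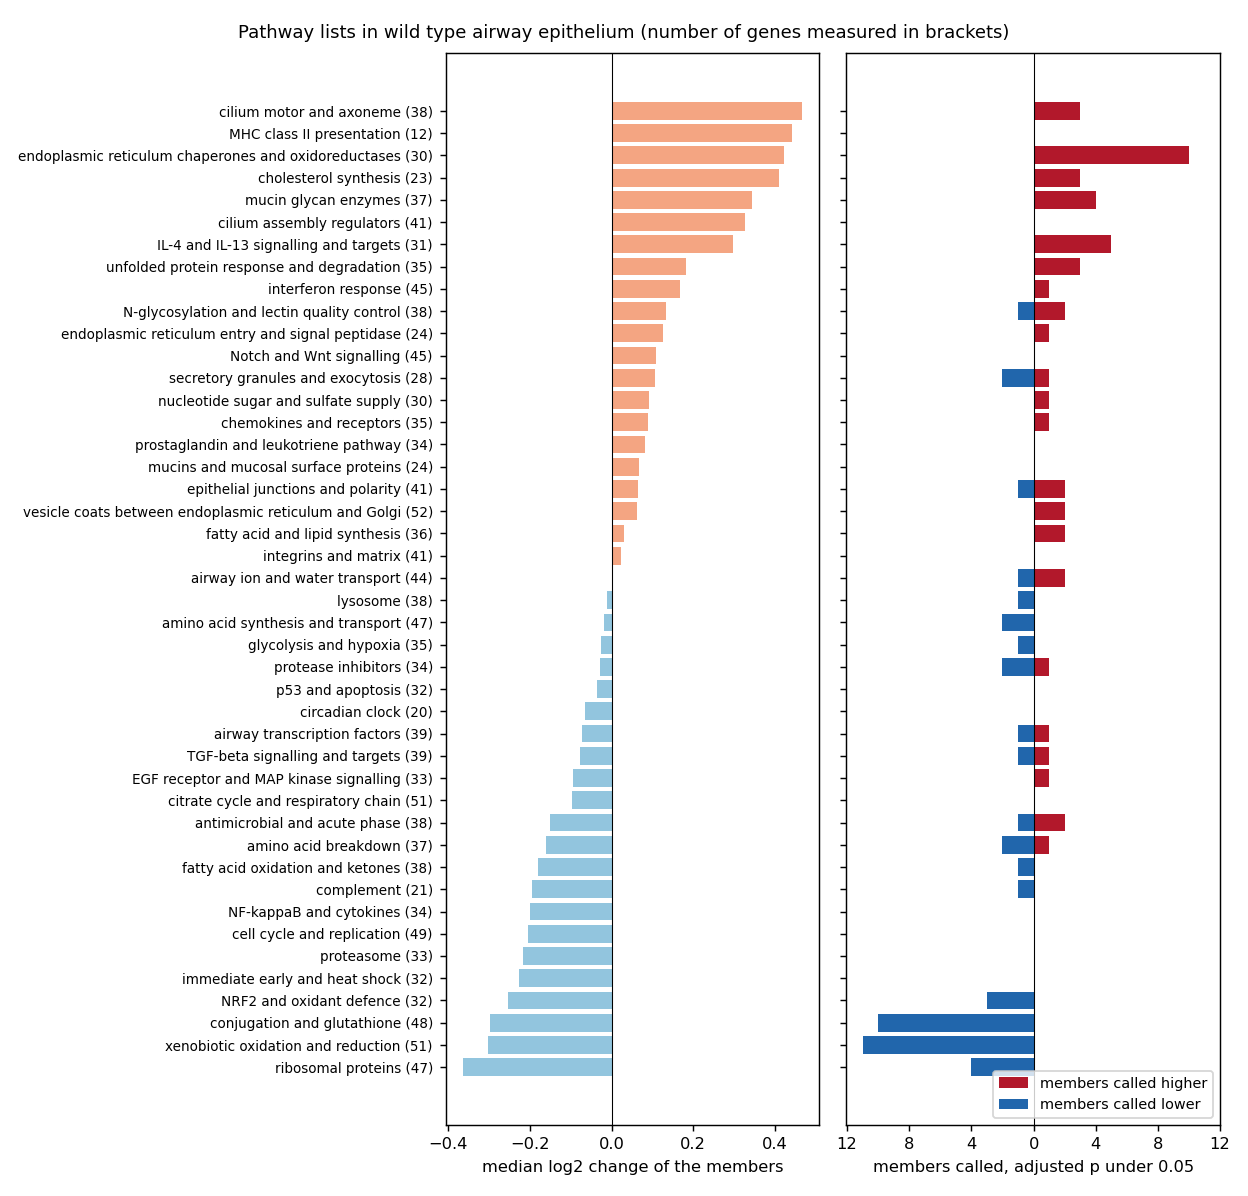
Median log2 change of the measured members of each of 44 pathway lists (left) and the number of members called higher or lower (right), with the number of genes measured in brackets. Chaperones of the endoplasmic reticulum had the most members called higher (10), and enzymes that oxidise and conjugate foreign compounds the most called lower (11 and 10).

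Genes of protein folding in the endoplasmic reticulum were higher with OVA. Of 179 measured genes on 5 lists that cover entry, folding, the unfolded protein response, N-glycosylation and vesicle coats, 18 were higher and 1 lower. Folding carried most of these: 10 of 30 chaperones and oxidoreductases were higher, 27 had a positive change, and the median was 0.42 against 0.00084 over all genes tested. That median was 0.22, 0.65 and 0.49 within the 3 slides and 0.34 in ko. The 4 genes called with the smallest p were Pdia4, Manf, Hspa5 and Sdf2l1.

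Of the 18 genes, 6 had in their promoter the endoplasmic reticulum stress element, a composite of a CCAAT box and a CCACG box 9 bases apart to which the sensors' transcription factors are known to bind. It was searched as CCAAT followed, after 9 bases of any kind, by CCACG on both strands of RefSeq promoter windows (GRCm38.p6) that run from 250 bases before to 50 after a transcription start. The element was in 39 of 32851 windows (0.119%), or in 37 of 27025 genes with a window (0.137%). A window existed for 15 of the 18 genes, of which 6 (40%) held it. Among all 150 measured genes of the 5 lists with a window, 11 (7.33%) held it. As the lists were chosen by function, the share over all genes is no baseline for the OVA response. A second element, ATTGG and CCACG with 1 base between them, was in none of the 15 and in 12 of all windows (0.0365%), from 12 genes (0.0444%). A match describes the letters only. The 250 bases before the start of 4 of the genes are shown, read 5′ to 3′ on the strand of the gene with the element in capitals. Pdia6 and Hspa5 carry it in the direction of the gene, Creld2 and Derl3 in the opposite direction.
Hspa5, chr2:34771840-34772089, plus strand: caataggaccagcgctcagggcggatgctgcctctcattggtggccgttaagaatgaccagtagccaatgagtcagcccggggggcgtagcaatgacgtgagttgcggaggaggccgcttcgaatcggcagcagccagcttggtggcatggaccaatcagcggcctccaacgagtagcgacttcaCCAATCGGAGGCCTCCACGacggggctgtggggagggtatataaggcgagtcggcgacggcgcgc
Pdia6, chr12:17266339-17266588, plus strand: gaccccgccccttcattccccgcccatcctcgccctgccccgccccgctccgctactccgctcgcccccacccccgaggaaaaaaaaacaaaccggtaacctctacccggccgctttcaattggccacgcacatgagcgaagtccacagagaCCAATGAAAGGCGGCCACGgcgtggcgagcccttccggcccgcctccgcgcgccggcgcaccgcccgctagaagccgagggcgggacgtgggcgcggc
Creld2, chr15:88819396-88819645, plus strand: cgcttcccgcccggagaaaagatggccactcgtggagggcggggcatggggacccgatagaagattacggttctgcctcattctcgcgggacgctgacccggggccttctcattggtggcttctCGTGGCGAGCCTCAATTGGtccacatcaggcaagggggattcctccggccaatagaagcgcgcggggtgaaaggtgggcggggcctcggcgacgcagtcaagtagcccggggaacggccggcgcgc
Derl3, chr10:75893148-75893397, plus strand: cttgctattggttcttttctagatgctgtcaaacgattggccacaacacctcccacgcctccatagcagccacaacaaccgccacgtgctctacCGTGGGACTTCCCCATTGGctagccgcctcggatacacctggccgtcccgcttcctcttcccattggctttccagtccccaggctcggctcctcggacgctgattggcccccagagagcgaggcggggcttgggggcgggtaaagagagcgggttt
The element lay 65 to 47 bases before the start in Hspa5, 98 to 80 in Pdia6, 126 to 108 in Creld2 and 156 to 138 in Derl3. The remaining pair were Dnajc3, with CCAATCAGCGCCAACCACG 105 to 87 bases before its start, and Ero1b, with CGTGGTCCCGCCTCATTGG, the opposite direction, 201 to 183 bases before.

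Hspa5 encodes BiP, the main chaperone of the endoplasmic reticulum and the protein that holds its stress sensors inactive. It measured 6.54, 6.17, 6.64 and 6.36 on the saline arrays and 7.63, 7.47 and 7.57 on OVA 1, 3 and 4, its spot on OVA 2 having been left out as a scanner outlier. Every OVA value was above every saline value, and the change was 1.13 (SE 0.13, limma adjusted p = 0.00107). Creld2, a secreted stress-response protein, measured 6.08, 6.43 and 6.32 with saline and 7.33, 7.49 and 7.73 with OVA, its spots on saline 4 and OVA 2 having been left out likewise, a change of 1.24 (SE 0.14). Pdia6, a disulfide isomerase, measured 5.67, 6.25, 6.02 and 6.11 with saline and 6.78, 6.65, 6.89 and 7.05 with OVA, a change of 0.83 (SE 0.16). Neither gene had overlapping groups. Derl3, a member of the channel that draws misfolded protein out for degradation, measured -1.96, -0.38, -0.59 and 0.52 with saline and 1.54, 1.52, 1.81 and 2.15 with OVA, a change of 2.36 (SE 0.42). It is also known from plasma cells, whose genes were high on OVA 1, and their part in its change was not tested.

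Dnajc3 (0.78, SE 0.17), a co-chaperone of BiP, and Ero1b (0.72, SE 0.16), an oxidase that supplies disulfide bonds, were the weakest of the 6. Dnajc3 missed the threshold without saline 1, 2 or 4 or OVA 1, 2 or 3 (adjusted p at most 0.0916), and Ero1b without saline 1 or 2 or OVA 1, 3 or 4 (adjusted p at most 0.108). The 5 other measured genes with the element were not called and had positive changes: Hsp90b1 (0.82, SE 0.25), Calr (0.70, SE 0.21), Syvn1 (0.62, SE 0.18), Canx (0.40, SE 0.13) and Alg12 (0.38, SE 0.11). Hsp90b1, Calr and Canx are chaperones, and Syvn1 is the ubiquitin ligase of the degradation channel.

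For Creb3l4, Pdia4, Manf and Sdf2l1 the search found no match or had no window. Creb3l4 had the smallest adjusted p of all features tested. This membrane-bound transcription factor, a relative of the stress sensor Atf6, measured 0.80, 1.06, 0.89 and 0.81 with saline and 2.70, 2.60, 2.79 and 2.47 with OVA. The groups lay far apart, and the change was 1.75 (SE 0.13, adjusted p = 4.41e-05), with 1.25 in ko. Pdia4, another disulfide isomerase, measured 3.82, 4.14, 3.85 and 4.04 with saline and 5.24, 5.08, 5.17 and 5.40 with OVA (change 1.26, SE 0.15). Manf, a small protein released under reticulum stress, measured 4.74, 4.58, 4.73 and 4.72 against 5.71, 5.47, 5.64 and 6.02 (change 1.02, SE 0.13). Sdf2l1, a partner of BiP, measured 2.77, 3.10, 3.03 and 3.32 against 4.46, 4.06, 4.63 and 4.83 (change 1.44, SE 0.19). None of these groups overlapped. Xbp1, the transcription factor spliced in this response, had a change of 0.34 (SE 0.15) and was not called.

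The steps before and after folding changed less. Of 35 genes of the unfolded protein response and degradation, 3 were higher, of 24 for entry and signal peptidase 1, of 38 for N-glycosylation 2 higher and 1 lower, and of 52 for vesicle coats 2. Edem1 (0.89), Sec11c (0.64), Uggt1 (0.70), Dpagt1 (0.40), Sec24d (0.48) and Uso1 (0.42) were called with all arrays, and each was lost on leaving out 2 to 14 of the 16 arrays one at a time, with adjusted p of at most 0.14. The vesicle coat count was 0 without saline 1 or 2 or OVA 1, 2 or 4 and 1 without any other array but ko saline 3 or 4. The N-glycosylation count was 0 without saline 1, 2 or 4 or OVA 3 or 4, 1 without OVA 1 or 2, ko OVA 3 or ko saline 1 or 3, and 4 without ko OVA 1. With signals divided by the median of the array, Hspa5, Creld2, Pdia6, Derl3, Dnajc3, Ero1b, Pdia4, Manf and Sdf2l1 missed the threshold while Creb3l4 kept it. That scaling lowered the median change of all genes to -0.25, and the chaperone list relative to it stood at 0.38. Pdia6, Derl3, Dnajc3 and Ero1b also missed it with the position block and without OVA 1 and OVA 2 together, Dnajc3 and Ero1b with slide as a block, and Hspa5, Dnajc3 and Ero1b with normexp background. Without OVA 1 and OVA 2 together Edem1, Sec11c, Uggt1, Sec24d and Uso1 were not called either.

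**Figure D3:**
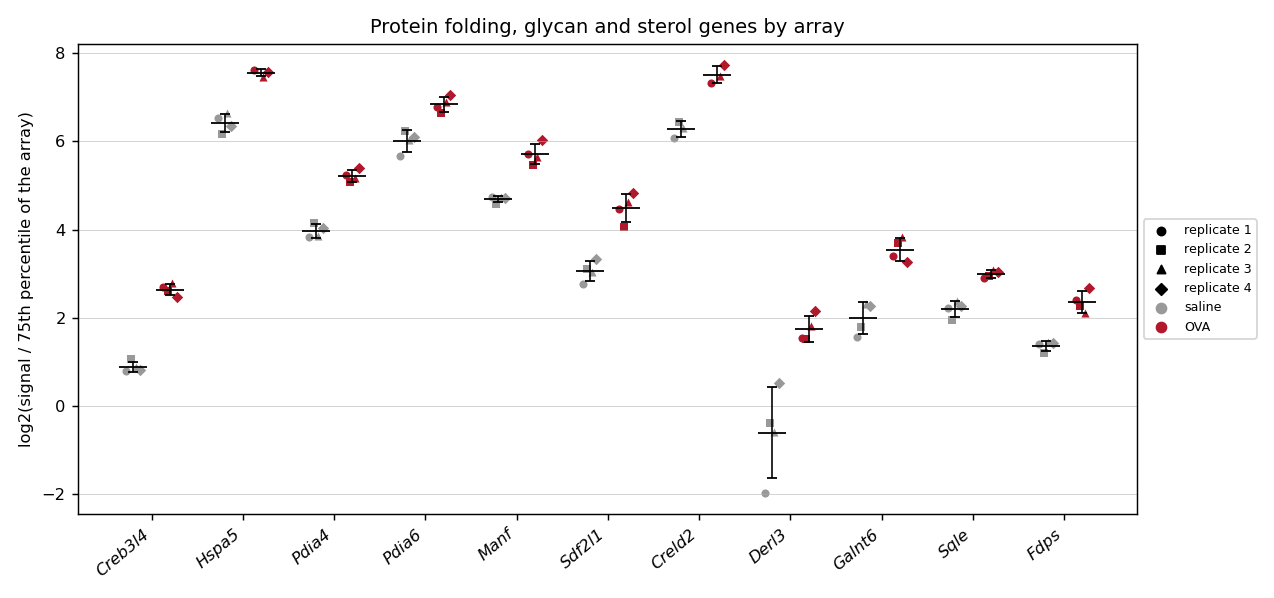
Level (vertical, log2 of signal over the 75th percentile of the array) of 11 genes of protein folding, glycan and sterol synthesis on each saline (grey) and OVA (red) array, with the replicate by marker shape and bars for mean and SD. The OVA values lie above all saline values for each gene shown.

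Enzymes that build sugar chains on mucins and enzymes of sterol synthesis also held genes that were higher. Of 37 mucin glycan enzymes, 4 were higher and none lower (median 0.34). Galnt6, which places the first sugar of the O-glycans, measured 1.57, 1.80, 2.32 and 2.26 with saline and 3.39, 3.70, 3.83 and 3.27 with OVA, a change of 1.56 (SE 0.20, adjusted p = 0.000973). Its groups did not overlap, and its change in ko was 1.15. Fut2 (1.08, SE 0.21), the fucosyltransferase of secreted blood group sugars, lay at the floor of -3.32 on 3 saline arrays and at -3.30 on saline 2, so its change depends on the floor, and it was lost without OVA 1 (adjusted p = 0.0541). B3gnt3 (0.74) and St3gal6 (0.63), a chain extender and a sialyltransferase, were each lost without 6 single arrays (adjusted p at most 0.0925 and 0.109). The list's count was 2 without OVA 1, OVA 2 or saline 1, and Fut2, B3gnt3 and St3gal6 were not called without OVA 1 and OVA 2 together.

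All 23 measured genes of cholesterol synthesis had a positive change, with a median of 0.41, and 3 were higher. Sqle, squalene epoxidase, measured 2.22, 1.96, 2.38 and 2.28 with saline and 2.91, 2.94, 3.09 and 3.05 with OVA, a change of 0.79 (SE 0.12, adjusted p = 0.00364). Fdps, which makes farnesyl diphosphate, measured 1.40, 1.20, 1.46 and 1.42 against 2.41, 2.26, 2.10 and 2.68, a change of 0.99 (SE 0.16). Groups of both genes lay apart. Msmo1 (0.58) was the third, and was lost without OVA 1, 3 or 4 or saline 1 or 2 (adjusted p at most 0.0955). The list's median was 0.13, 0.61 and 0.39 within the 3 slides and 0.22 in ko. Median scaling ended the calls of Galnt6, Sqle and Fdps, and the position block that of Sqle. Under median scaling 20 genes of cholesterol synthesis were positive and 3 negative (median 0.13, against -0.25 over all genes).

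Enzymes that handle foreign compounds and club cell markers had members that were lower and none that was higher. Of 51 genes of xenobiotic oxidation and reduction, 11 were lower and none higher (median -0.30), and of 48 for conjugation and glutathione, 10 were lower and none higher (median -0.30). Of 23 club cell markers 6 were lower and none higher (median -0.44). The defining club cell genes Scgb1a1 (-0.37, SE 0.50), the main secretoglobin, and Cyp2f2 (-0.78, SE 0.58), a cytochrome P450, were not called, and their spots were left out on 1 and 2 arrays by the scanner's outlier calls. The 3 medians in ko were -0.15, -0.05 and -0.07. The oxidation count was 4 to 7 without any one of OVA 1, 3 or 4 or saline 1, 2 or 4, and the club cell count was 3 without OVA 1 or saline 2.

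Of the genes given next, Cyp4b1, Aox3 and Mocs1 are not on the list of xenobiotic oxidation and are outside its count. Among the oxidising enzymes, Cyp4b1, the lung's cytochrome P450 of fatty acids and toxicants, measured 7.27, 7.53, 7.20 and 7.4 with saline and 6.09, 6.66, 6.57 and 6.37 with OVA, a change of -0.93 (SE 0.14, adjusted p = 0.00433). Cyp4a12b, a fatty acid hydroxylase, measured 3.14, 2.54, 2.82 and 2.65 against 1.39, 1.71, 1.81 and 1.19, a change of -1.26 (SE 0.18). The highest OVA value was below the lowest saline value for both. Akr1c18, which inactivates progesterone, measured 2.82, 1.54, 1.38 and 1.92 with saline and -0.25, -0.03, -0.19 and -0.23 with OVA, a change of -2.09 (SE 0.33). Its saline arrays spread more widely than its OVA arrays, with no overlap. Pon1 (-0.94, SE 0.17), an esterase of oxidised lipids, lay at 6.19 to 6.68 with saline and at 5.33 to 5.65 with OVA, and Maoa (-0.92, SE 0.17), monoamine oxidase A, at -0.29 to 0.17 and at -1.47 to -0.82. Aox3, an aldehyde oxidase, lay at 3.18 to 3.53 with saline and at 2.14 to 2.68 with OVA (change -1.01, SE 0.13), and Mocs1, needed to make the molybdenum cofactor that such oxidases use, at 2.19 to 2.36 and at 1.40 to 1.61 (change -0.78, SE 0.12).

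Among the 10 conjugation and glutathione genes that were lower, Gsta1, a glutathione transferase, measured 2.56, 2.77, 2.11 and 2.27 with saline and 0.92, 1.43, 0.96 and 1.14 with OVA, a change of -1.31 (SE 0.20, adjusted p = 0.00343). Gstt1, another, measured -0.26, -0.94, -0.67 and -1.04 against -2.83, -2.28, -2.35 and -2.76, a change of -1.83 (SE 0.26). Groups were apart for both genes. Probes of close glutathione transferase copies may share signal. Abcc3, a pump for conjugates, measured 3.73, 3.73, 3.40 and 3.40 with saline and 2.26, 2.47, 2.47 and 2.66 with OVA, a change of -1.10 (SE 0.17). Sult1c2, a sulfotransferase, measured 1.84, 2.01, 1.97 and 2.24 against 0.97, 1.14, 1.08 and 0.86, a change of -1.0 (SE 0.16). Its change in ko was -0.01, and the difference between genotypes did not pass (interaction adjusted p = 0.74).

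Of 32 genes regulated by NRF2 or for oxidant defence, 3 were lower (G6pdx, Osgin1 and Cat), with a median of -0.25, and none of the 3 was called without OVA 1, OVA 3, saline 1 or saline 4, nor without OVA 1 and OVA 2 together. Nqo1, the usual reporter of NRF2, had a change of -0.61 (SE 0.27) and Nfe2l2, which encodes NRF2, of 0.09 (SE 0.19), and neither was called.

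**Figure D4:**
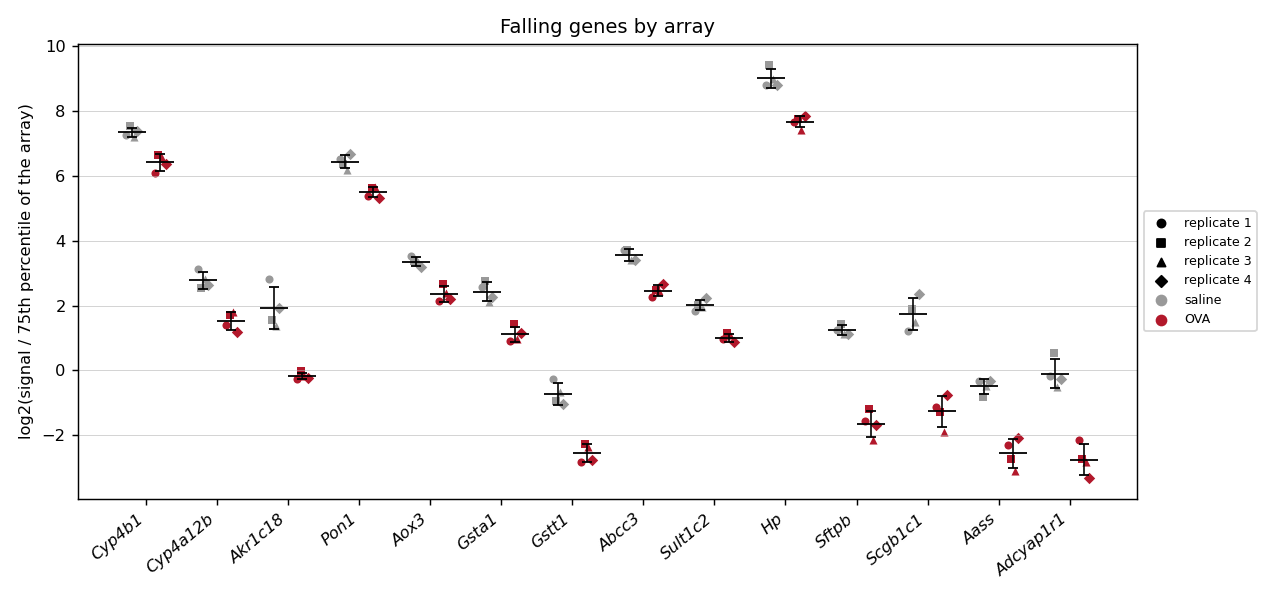
Level (vertical, log2 of signal over the 75th percentile of the array) of 14 genes called lower, on each saline (grey) and OVA (red) array, with the replicate by marker shape and bars for mean and SD. Each OVA value is below all saline values of its gene.

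Several of the 15 largest falls were in secreted proteins, an enzyme and a receptor. Sftpb, surfactant protein B, made by alveolar type 2 and club cells, measured 1.26, 1.45, 1.12 and 1.13 with saline and -1.55, -1.18, -2.15 and -1.69 with OVA, a 7.35-fold fall (change -2.88, SE 0.30, adjusted p = 0.000232). Of 17 alveolar markers it was the only one called, and the list's median was -0.09. Scgb1c1, a secretoglobin, measured 1.22, 1.90, 1.5 and 2.36 against -1.12, -1.28, -1.91 and -0.74, an 8.02-fold fall (change -3.00, SE 0.48). Aass, the first enzyme of lysine breakdown, measured -0.33, -0.82, -0.46 and -0.33 with saline and -2.31, -2.72, -3.11 and -2.09 with OVA (change -2.07, SE 0.23). Adcyap1r1, the receptor of the neuropeptide PACAP, measured -0.16, 0.53, -0.52 and -0.26 against -2.13, -2.74, -2.82 and -3.32 (change -2.65, SE 0.32). In ko the changes were -2.56, -2.96, -1.86 and -2.50 in the order given, and none of their groups overlapped in wild type.

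Hp, the haemoglobin-binding haptoglobin, measured 8.82, 9.44, 9.00 and 8.82 with saline and 7.66, 7.75, 7.43 and 7.86 with OVA, a change of -1.34 (SE 0.25), with -0.57 in ko. Krtap17-1, a keratin-associated protein, measured 1.86, 0.77, 0.91 and 0.89 against -1.70, -0.39, -1.49 and -1.14 (change -2.29, SE 0.32). Col23a1, a membrane collagen, changed by -1.48 (SE 0.29) and lost the call with the mean of its probes, 1 of which had the opposite sign. Rab6b, a Golgi GTPase, was at the floor on all OVA arrays, at least 2.98-fold lower. Pparg, the lipid-sensing nuclear receptor, measured 0.78, 0.94, 0.61 and 0.57 against -0.38, -0.25, -0.06 and 0.01 (change -0.90, SE 0.15).

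Without OVA 1 and OVA 2 together, the calls of Akr1c18, Pon1, Maoa, Abcc3, Hp, Scgb1c1, Col23a1, Rab6b and Pparg were lost, and those of Cyp4b1, Cyp4a12b, Aox3, Mocs1, Gsta1, Gstt1, Sult1c2, Sftpb, Aass, Adcyap1r1 and Krtap17-1 were kept. With the position block, Cyp4b1, Akr1c18, Pon1, Maoa, Mocs1, Gsta1, Gstt1, Abcc3, Sult1c2, Hp and Pparg lost their calls. Kept under it were Cyp4a12b, Aox3, Sftpb, Scgb1c1, Aass, Adcyap1r1, Krtap17-1, Col23a1 and Rab6b. Mocs1, like Col23a1, lost its call with the mean of its probes. Median scaling ended the calls of Cyp4b1, Pon1, Maoa, Aox3, Mocs1 and Pparg among these.

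Of the 15 largest rises outside the mucous and mast cell lists, Adra2a had the smallest p. Adra2a, the alpha-2A adrenergic receptor, measured -0.12, 0.19, -0.59 and 0.27 with saline and 3.29, 3.01, 3.10 and 2.92 with OVA, an 8.81-fold rise (change 3.14, SE 0.28, adjusted p = 9.2e-05). Cdhr1, a cadherin known from photoreceptors, measured -0.60, 0.96, 0.83 and 0.99 against 3.05, 3.39, 3.58 and 3.22 (change 2.77, SE 0.34). Msx3, a homeobox gene, measured -3.07, -3.25, -3.23 and -2.82, near the floor of -3.32, against 0.20, -1.07, -0.87 and -0.77 (change 2.47, SE 0.27). All 3 were called under each alternative that tested them (31 for Msx3 and 32 for the others), as was Cd244a (2.17, SE 0.28), a receptor of natural killer and mast cells. Adra2a changed by 2.25 and Cdhr1 by 1.82 in ko.

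Secreted proteins were also among these 15. Spink1, a trypsin inhibitor, measured -1.06, -1.36, -1.07 and -0.48 with saline and 1.37, 3.04, 3.40 and 0.63 with OVA (change 3.10, SE 0.57), with a wide spread among the OVA arrays and no overlap. Ang6 (2.19, SE 0.30), a ribonuclease of the angiogenin family, rose too, as did its relative Ang4 (1.80, SE 0.27), which was not among the 15. As they are close copies, their probes may share signal. Gp2, a glycoprotein of zymogen granules and M cells, measured 1.98, 0.80, 2.47 and 1.99 against 3.83, 4.27, 4.44 and 3.49 (change 2.20, SE 0.36). Fam3b, a cytokine-like protein of pancreatic islets, was at the floor on all saline arrays and at least 4.87-fold higher. 2210407C18Rik rose by 2.33 (SE 0.43). Others among the 15 largest rises were Kcnj1 (2.45, SE 0.43), the potassium channel ROMK, which lay at the floor on 3 saline arrays and at -3.31 on saline 2 so that its change depends on the floor, Ffar2 (2.01, SE 0.30), a receptor of short-chain fatty acids, Derl3, Fndc1, Ccl8 and Chil4.

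The chemokine Ccl8 (2.81, SE 0.56) had adjusted p = 0.0685 without OVA 1 and 0.0515 without saline 2, and Fndc1 (2.59, SE 0.49) 0.0547 without OVA 1. Ccl8 lay at -2.97 on saline 1 and at -3.32 to -3.29 on the other saline arrays, so its change depends on the floor. Chil4 (2.77, SE 0.64), a chitinase-like protein with close copies, was lost without 9 single arrays (adjusted p at most 0.118), and in ko it rose by 5.80. Without OVA 1 and OVA 2 together, Spink1, Gp2, Fam3b, 2210407C18Rik, Kcnj1, Ffar2, Ccl8, Fndc1 and Chil4 were not called. The position block ended the calls of Ang4, Ang6, Fam3b, 2210407C18Rik, Fndc1 and Chil4, and median scaling those of 2210407C18Rik, Gp2, Kcnj1, Spink1, Ccl8 and Chil4. In the 8 wild type arrays alone Spink1 and Derl3 were not called. With normexp background the calls lost included Fam3b, Kcnj1, Ffar2, Ccl8, Fndc1 and Chil4. More of the named genes lost their calls under these settings, as given at the end.

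Transport across the epithelium changed in a few genes and not as a group: of 44 ion and water transport genes 2 were higher and 1 lower, with a median of 0.00. Fxyd4, a modulator of the sodium pump, measured 1.03, 2.20, 1.82 and 2.12 with saline and 2.89, 3.24, 3.66 and 3.19 with OVA (change 1.45, SE 0.24, adjusted p = 0.00579). Car2, carbonic anhydrase 2, measured -0.02, -1.13, -0.85 and -0.71 against 0.56, 0.03, 0.96 and 0.77 (change 1.26, SE 0.24). Groups were apart in both. Scnn1b, a subunit of the sodium channel ENaC, was lower (-1.58, SE 0.35), and was lost without OVA 1 or 3 or any one saline array (adjusted p at most 0.0978). Of 41 junction and polarity genes 2 were higher. Cldn22, a claudin, measured 2.10, 2.83, 2.37 and 2.28 against 4.07, 4.27, 4.17 and 4.27 (change 1.80, SE 0.26), with 1.91 in ko. Cldn2 (1.49, SE 0.35), a claudin that lets cations pass, was lost without 8 single arrays (adjusted p at most 0.116). Median scaling and the position block each ended the calls of Fxyd4, Car2 and Cldn22. Scnn1b and Cldn2 were not called without OVA 1 and OVA 2 together.

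In the machinery of granule release, Marcks, which tethers granules for exocytosis, measured 2.24, 2.43, 2.17 and 2.27 with saline and 2.91, 2.99, 3.37 and 3.40 with OVA (change 0.89, SE 0.15, adjusted p = 0.0076). Vamp8, a membrane fusion protein of mucin granules, went the other way, from 4.89, 4.82, 4.86 and 4.70 to 4.22, 4.31, 4.28 and 4.37 (change -0.52, SE 0.09). Both had groups that did not overlap, and of the 28 genes of that list 1 was higher and 2 were lower, the third being Rab6b. Both calls were lost with the position block and under median scaling, and that of Vamp8 also without OVA 1 and OVA 2 together.

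Genes of motile cilia had positive changes nearly throughout, of which few passed. Of 38 motor and axoneme genes 37 were positive, with a median of 0.47, and 3 were higher. Of 41 assembly regulators 36 were positive, with a median of 0.33, and none was called. Of 19 ciliated cell markers 4 were higher (median 0.40). Ccdc39, the protein that sets the spacing of the axoneme repeat, measured 1.01, 1.1, 1.34 and 1.39 with saline and 1.79, 1.89, 2.05 and 1.91 with OVA (change 0.70, SE 0.10, adjusted p = 0.00282). Dnah9, a dynein heavy chain, measured 3.59, 3.47, 3.92 and 3.89 against 4.41, 4.56, 4.67 and 4.23 (change 0.75, SE 0.13). Foxj1, the master regulator of ciliated cells, had a change of 0.30 (SE 0.13) and was not called. The motor list lay 0.22 to 0.64 above the saline mean on the OVA arrays and -0.12 to 0.12 from it on the saline arrays. Its median was 0.30 in ko. The 3 called motor genes, Kif9, Cfap52 and Dnah2, were each lost without single arrays, and the count was 0 without OVA 3 or saline 1, 1 without OVA 2 or saline 2 and 5 without ko OVA 1. The ciliated cell count was 2 without any one of these 4 arrays. Median scaling and the position block each ended the calls of Ccdc39 and Dnah9, and leaving out OVA 1 and OVA 2 together ended those of Dnah9, Kif9, Cfap52 and Dnah2. Under median scaling 31 motor genes were positive and 7 negative (median 0.19), and 23 assembly regulators positive and 17 negative (median 0.07). The median over all genes was then -0.25.

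The opposite pattern held for ribosomal protein genes. All 47 had a negative change, with a median of -0.36, and 4 were lower: Rpl19 (-0.44, SE 0.09), Rpl23 (-0.29), Rps7 (-0.36) and Rpl14 (-0.50). Rpl19 measured 7.29, 7.24, 7.16 and 7.14 with saline and 6.76, 6.78, 6.73 and 6.78 with OVA. The mean of the list lay -0.20 to 0.22 from the saline mean on the saline arrays and -0.49 to -0.13 on the OVA arrays, so the groups overlapped. Of 33 proteasome genes 32 were negative (median -0.22) and none was called. In ko the medians were -0.03 and 0.01. Change also moved with brightness over all genes, and its part in these results was not tested: the brightest 3713 had a median of -0.08 and the dimmest 3713 one of 0.09, which were -0.04 and 0 without OVA 1. The ribosomal count was 0 without saline 1, 1 without OVA 3 or ko saline 1 or 2, and 2 without OVA 1, OVA 2, saline 2 or ko OVA 2 or 3, and each of the 4 calls was lost without at least 1 array and without OVA 1 and OVA 2 together.

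**Figure D5:**
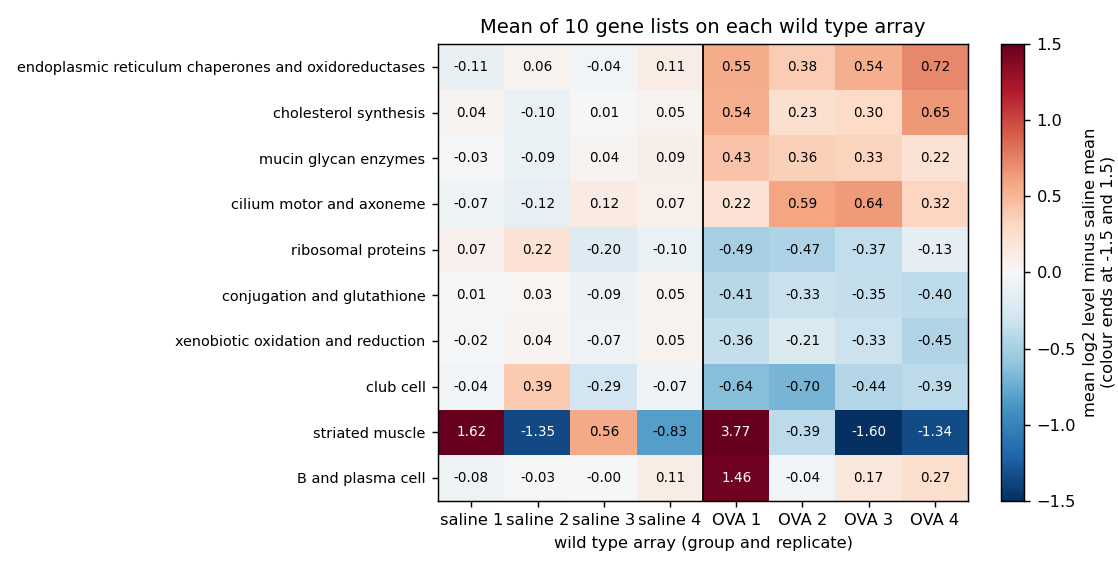
Mean log2 level of 10 gene lists on each wild type array, relative to the mean of the saline arrays, in numbers and colour. The first 4 lists lie above the saline mean and the next 4 below it on every OVA array, while the striated muscle and B and plasma cell lists stand out on OVA 1 (3.77 and 1.46).

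Some receptors by which phagocytes sense microbes were among the genes that were lower. Clec4n, which encodes dectin-2, a receptor for fungal sugars, measured 0.00, 0.26, 0.32 and 0.22 with saline and -2.0, -2.88, -2.36 and -2.13 with OVA, a 5.83-fold fall (change -2.54, SE 0.42, adjusted p = 0.00488). The formyl peptide receptor Fpr1 measured -1.92, -1.30, -1.63 and -2.16 against -2.81 on OVA 1 and the floor of -3.32 on the other 3 (change -1.44, SE 0.25), and Fpr2 was at the floor on all OVA arrays, at least 1.43-fold lower. Cd302, a C-type lectin receptor, measured 0.29, 0.77, 0.68 and 0.58 against -0.21, -0.18, -0.22 and -0.46 (change -0.85, SE 0.11). Its groups, like those of the other 3, did not overlap. In ko these 4 had changes of 0.02, -0.03, 0.07 and -0.30.

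Marco, a scavenger receptor of macrophages, measured -0.84, 1.25, 1.52 and -0.49 with saline and -1.97, -3.32, -3.16 and -2.12 with OVA (change -3.00, SE 0.59), with adjusted p = 0.0504 without OVA 3 and 0.0589 without saline 2. Clec4e (-2.61, SE 0.64), which encodes mincle, was lost without 13 single arrays (adjusted p at most 0.132). Of 25 macrophage and dendritic cell genes 18 had a positive change (median 0.19), 2 were lower, Clec4n and Marco, and none was higher. Of 15 neutrophil genes 2 were lower, Fpr1 and Fpr2, 7 were positive and the median was -0.32. Cd14, a receptor for endotoxin, had a change of -0.57 (SE 0.15, adjusted p = 0.0668). Of 12 genes of MHC class II presentation 10 were positive (median 0.44) and none was called. Without OVA 1 and OVA 2 together Clec4n, Clec4e, Fpr1 and Marco were not called, and with the position block Clec4e, Fpr1, Fpr2 and Marco were not.

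Moderate changes, under 2-fold, included regulators of growth and signalling. Of those that rose, Wnt5b, a Wnt ligand, had the smallest p of the named genes and measured 0.24, 0.09, 0.29 and 0.46 with saline and 1.06, 1.11, 1.35 and 1.32 with OVA (change 0.94, SE 0.11, adjusted p = 0.000339). Slc52a3, a riboflavin transporter, measured 1.36, 1.25, 1.30 and 1.64 against 2.19, 2.38, 2.42 and 2.52 (change 0.99, SE 0.13), and P2ry6, a receptor for UDP, 0.70, 1.33, 0.85 and 0.95 against 2.05, 1.94, 1.72 and 1.78 (change 0.92, SE 0.13). Every OVA value exceeded every saline value in all 3. Ttc39c (0.78, SE 0.12), Flt3l (0.80, SE 0.14), a dendritic cell growth factor, Bmp8a (0.85, SE 0.14), a BMP ligand close to the floor in saline, and Lrig1 (0.57, SE 0.10), a brake on EGF receptor signalling, rose too. Abcb11, the bile salt pump, was at the floor on all saline arrays and at least 1.94-fold higher. That is a lower bound and does not place it under 2-fold. Its log2 change reached 2.77 under the alternatives, and its call was lost with normexp background.

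Of the moderate falls, Syngr1, a vesicle protein, measured 3.56, 3.35, 2.97 and 3.42 with saline and 2.40, 2.49, 2.43 and 2.64 with OVA (change -0.84, SE 0.12, adjusted p = 0.00272). Krt23, a keratin, measured 5.59, 5.46, 5.07 and 5.53 against 4.56, 4.74, 4.68 and 4.73 (change -0.73, SE 0.12), and Gpi1, a glycolytic isomerase, 6.24, 6.43, 6.01 and 6.24 against 5.71, 5.67, 5.69 and 5.82 (change -0.51, SE 0.09). The groups of all 3 lay apart. Asrgl1 (-0.64, SE 0.10), an asparaginase, Hacd4 (-0.85, SE 0.14), of long-chain fatty acid synthesis, and Efemp1 (-0.91, SE 0.15), a matrix protein, also fell. Calls ended by median scaling included those of P2ry6, Flt3l, Bmp8a, Lrig1, Abcb11, Krt23, Gpi1, Asrgl1, Hacd4 and Efemp1. With the position block Wnt5b, Slc52a3, P2ry6, Syngr1 and Abcb11 kept their calls. Under it Ttc39c, Flt3l, Bmp8a, Lrig1, Krt23, Gpi1, Asrgl1, Hacd4 and Efemp1 lost them. Bmp8a and Efemp1 were not called without OVA 1 and OVA 2 together.

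In ko, 139 of the 18562 (0.749%) were called with OVA. The test of the difference between genotypes called none of the 18562 (limma with Benjamini-Hochberg adjustment, lowest adjusted p = 0.155), with 569 at an unadjusted p under 0.05 and Tph1 lowest. The values of wild type and ko given side by side are therefore not shown to differ. With slide as a block, 1 gene passed, Fpr1, at an adjusted p of 0.0347.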

How the data were processed

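RNA from 16 samples was hybridised to Agilent one-colour mouse arrays (Cy3, per the labels' protocols), 8 of them wild type. The deposited intensity values are the processed signals of the scanner files, background-subtracted by Feature Extraction 10.5.1.1 per the file headers, while the submitters' processing notes name 10.1. The authors also deposited a table of log2 values, used only as an alternative. Here each array's signal was divided by its 75th percentile, raised to a common floor (-3.32 as log2) and log2 transformed, with control spots and outlier spots left out. A probe was kept (25609 were) if at least 4 of the 16 arrays called it well above background, and the brightest probe stood for a gene, giving 18562 genes and transcripts, 12846 with a symbol. Levels of different probes are not comparable.

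A model with 1 mean per group over all 16 arrays was fitted with limma 3.58.1 (R 4.3.3), with two-sided moderated tests and Benjamini-Hochberg adjustment at 0.05. The method was tested on simulated data. Samples were not treated as paired by replicate number. The correlations of same-numbered deviations were 0.157, -0.21, 0.215 and 0.359. The highest with a differently numbered OVA array were 0.12, 0.325, 0.303 and 0.0373. The same number matched best for replicates 1 and 4 and not for 2 and 3, so these values do not settle whether samples were paired. Slides and array positions were tried as blocks.

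Named genes were the 15 largest changes in each direction outside the mucous and mast cell lists, the 10 smallest p in each direction among changes under 1, up to 4 called members per list, and called genes of the endoplasmic reticulum lists with the searched promoter element. Genes given as not called that fall outside this rule were added after their values were seen. The members and lists were chosen with earlier results of these data known. Normexp with an offset of 50, other scalings, filters and probe rules, array weights, the wild type arrays alone and leaving out arrays were the alternatives. Results for some genes are not reported here.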

Additional observations from a re-analysis of the deposited data

Results flagged for a closer look

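Among the named genes, 252 groups of 4 arrays were examined for a single array far from the other 3, and 21 were found; chance gives about 1 in 20 groups. The distance was judged by the gap to the nearest array as a share of the group's range against Dixon's 95% critical value.

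In saline, saline 1 stood apart for Cdhr1 (-0.60, others 0.83 to 0.99), Krtap17-1 (1.86, others 0.77 to 0.91), Rpl23 (6.57, others 6.34 to 6.36) and Ccl8 (-2.97, others -3.32 to -3.29). Saline 2 did so for Manf (4.58, others 4.72 to 4.74) and B3gnt3 (-1.76, others -2.55 to -2.44). Saline 3 was apart for G6pdx (3.19, others 3.63 to 3.69), Kif9 (0.82, others 0.53 to 0.57) and Uggt1 (-1.07, others -1.66 to -1.57), and saline 4 for Lrig1 (3.17, others 2.89 to 2.91). With the other 3 arrays at the floor of -3.32, saline 2 was above it for Bmp8a (-3.03), Fut2 (-3.30) and Kcnj1 (-3.31), and saline 4 for Mcpt2 (-3.13) and Tph1 (-3.24).

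In OVA, OVA 1 was above the floor for Fpr1 (-2.81) where the other 3 arrays were at it. OVA 2 stood apart for Asrgl1 (0.71, others 0.31 to 0.36) and Scin (3.35, others 3.92 to 3.97), OVA 3 for Cldn2 (0.06, others -0.49 to -0.41) and Maoa (-1.47, others -0.92 to -0.82), and OVA 4 for Cd302 (-0.46, others -0.22 to -0.18).

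For Bmp8a, Fut2, Kcnj1, Mcpt2, Tph1 and Fpr1 the floor fixed the finding: with 3 arrays set to one value, any other value stands apart, so these are not to be read against the chance rate.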

How the results depend on the processing

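All 485 calls kept their direction under each alternative that tested them, which is no independent support, as the alternatives reuse the same arrays. The counts of genes higher and lower, 289 and 196 as reported (59.6% higher), were 39 and 61 with median scaling (39% higher, with the median of all genes at -0.25), 78 and 53 with normexp, 143 and 92 in the 8 wild type arrays alone, 843 and 564 with array weights, 72 and 22 with array position as a block (76.6% higher, 88 of the 485 calls kept, position and treatment being only partly separable), and 98 and 63 without OVA 1 and OVA 2 together, a choice made after seeing the data. Leaving out single arrays gave 150 to 338 higher and 85 to 220 lower. The difference between genotypes called 1 gene in place of 0 with slide as a block. The cause was not tested. Whether same-numbered samples were paired is not known, and with the replicate block 223 were higher and 147 lower. Of 485 calls, 190 were kept whichever single array was left out and 25 under every alternative that tested them. Of the 131 named genes called, 50 lost their call in the 8 wild type arrays alone and 75 with normexp. Not all of these losses are given beside their genes. In the wild type arrays alone Derl3, Maoa, Car2, Fxyd4, Dnah9, Gpi1, Hacd4, Marco and Fpr2 were among those lost. With normexp Cyp4b1, Pon1, Maoa, Rab6b, Fpr1, Abcb11, Krt23 and Gpi1 were among them. Dim probes limit the precision: 16 calls are bounds, and 6 of 123 called genes with several probes had a probe of opposite sign.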
